A study of Mus musculus with 12 samples.

Results

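The 8 genes described here encode the pyruvate dehydrogenase complex and the enzymes that switch it off and on. They were taken from the gene-level table by their symbols: Pdha1, Pdhb and Dlat for the catalytic subunits, Pdk1, Pdk2, Pdk3 and Pdk4 for the kinases, and Pdp1 for a phosphatase. All 8 of 8 were in the table, among 54178 gene entries used, and all 8 passed the filter on low counts that left 15226 genes for testing. The rows were taken by name and not by a measured value. The 8 genes were nonetheless chosen with earlier results of these data known.

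RNA was sequenced from 12 mouse heart samples, described as whole hearts, in 4 groups of 3: KO exercise, KO sedentary, Flox exercise and Flox sedentary. Flox mice carried loxP-flanked Cited4 alleles on both chromosomes. KO mice came from crossing these with mice that carry cre under the aMHC promoter, which is active in cardiomyocytes. Deletion of Cited4 is therefore expected there, and it was not measured by cell type. No group had cre with intact Cited4 alleles, and the KO label therefore stands for the loss of the gene and the transgene together. Exercise means voluntary wheel running and sedentary means none, both for 8 weeks. The ages of the mice are not in the labels. Each sample title also holds a code in brackets, whose treatment letter (E or S) contradicts the words sedentary and exercise, and the groups here follow the words. If the codes were right instead, each exercise difference and the interaction would change sign, and the 2 genotype comparisons would exchange their treatment names. The labels do not say which animal gave which library, so the p-values speak only of the variation among these libraries, which may be technical.

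The libraries held 17465432 to 20467300 counts. Cited4, a transcriptional co-regulator and the targeted gene, had 3, 0 and 0 counts in KO exercise, 5, 2 and 0 in KO sedentary, 406, 261 and 431 in Flox exercise and 276, 192 and 295 in Flox sedentary, so the genotype words matched the gene. All 10 cardiomyocyte markers were detected in every library. The libraries differed in atrial tissue. The summed level of 10 atrial markers was 200 to 3340 CPM (counts scaled to library size) in KO exercise, 1550 to 21500 in KO sedentary, 179 to 4690 in Flox exercise and 251 to 4110 in Flox sedentary. KO sedentary libraries 2 and 3 stood apart, at 11100 and 21490 CPM. Among these markers, Myl7 had 0.0516 CPM in KO exercise 2, 0.0570 and 1.27 in Flox exercise 1 and 3, and 1.24 and 0 in Flox sedentary 1 and 2. In every other library Myl7 had 126 CPM or more. Bmp10, also on the list, did not follow it throughout. It had 0.0533 CPM in KO exercise 3 and 0.101 in Flox sedentary 3, where Myl7 had 506 and 516. In the remaining libraries with Myl7 at that level, Bmp10 had 131 to 930 CPM. Most of the atrial sum in the libraries with little Myl7 was Nppa, at 128 to 214 CPM. The summed level of the 10 cardiomyocyte markers was 56500 to 71300 CPM in KO sedentary and 78600 to 83200 in Flox sedentary. The adipocyte marker mean also differed, at 3.795 to 4.41 log2 CPM over 11 markers in KO sedentary and 1.02 to 1.97 in Flox sedentary. Their summed level overlapped, at 571 to 811 CPM in KO sedentary and 549 to 784 in Flox sedentary. Fabp4, the most abundant of them, had 407 to 512 CPM in KO sedentary and 492 to 710 in Flox sedentary. The summed level of 8 fibroblast markers was 1450 to 1670 CPM in KO sedentary and 958 to 1020 in Flox sedentary. Lep, an adipocyte hormone on that list, had no count in 7 libraries and Ucp1 none in 6.

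The pyruvate dehydrogenase complex sits in the mitochondrial matrix and turns pyruvate from glycolysis into acetyl-CoA for the citric acid cycle. Kinases phosphorylate its E1 alpha subunit and stop it, and phosphatases restore it, so the balance of both sets how much glucose the heart oxidises in place of fatty acids. PDK4 is the isoform known to respond to fasting, fatty acids and glucocorticoids through PPAR and FOXO factors, while PDK2 is a widely expressed isoform that senses acetyl-CoA, NADH and pyruvate, and PDK1 is known as a target of HIF-1.

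Per kilobase of exon, Pdhb and Pdha1 stood above every kinase, while Dlat stood below Pdk2. Levels were divided by the exon length in the GENCODE M21 annotation (GRCm38), the one scale on which genes are compared with each other here. Over the 12 libraries Pdhb averaged 335 ± 36.6 CPM per kb and Pdha1 307 ± 40.7, 2 neighbours in the order that did not differ beyond their spread. Pdk2 followed at 131 ± 18.9, Dlat at 75.6 ± 12.6 and Pdk4 at 59.9 ± 25.2 CPM per kb, the last 2 again within each other's spread. Pdk1 stood at 25.8 ± 4.57, Pdp1 at 8.56 ± 1.17 and Pdk3 at 1.68 ± 0.954 CPM per kb (SD, n = 12 each). Deposited counts are estimates of Salmon on an annotation that is not named, so these lengths are an approximation.

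The spread between libraries was unlike from member to member. Pdk4 ran from 103 to 382 CPM, a 3.72-fold range, and its SD within groups was 0.60 on the log2 scale. That SD was larger than in 98.4% of the 1217 genes with at least 100 CPM on average, whose median was 0.18. Of the other members at that level, Pdhb (0.13), Pdha1 (0.14), Pdk2 (0.16), Pdk1 (0.20) and Dlat (0.25) had smaller SDs. Pdk3 ran from 1.31 to 8.67 CPM and rests on 23 to 190 counts per library.

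**Figure D1:**
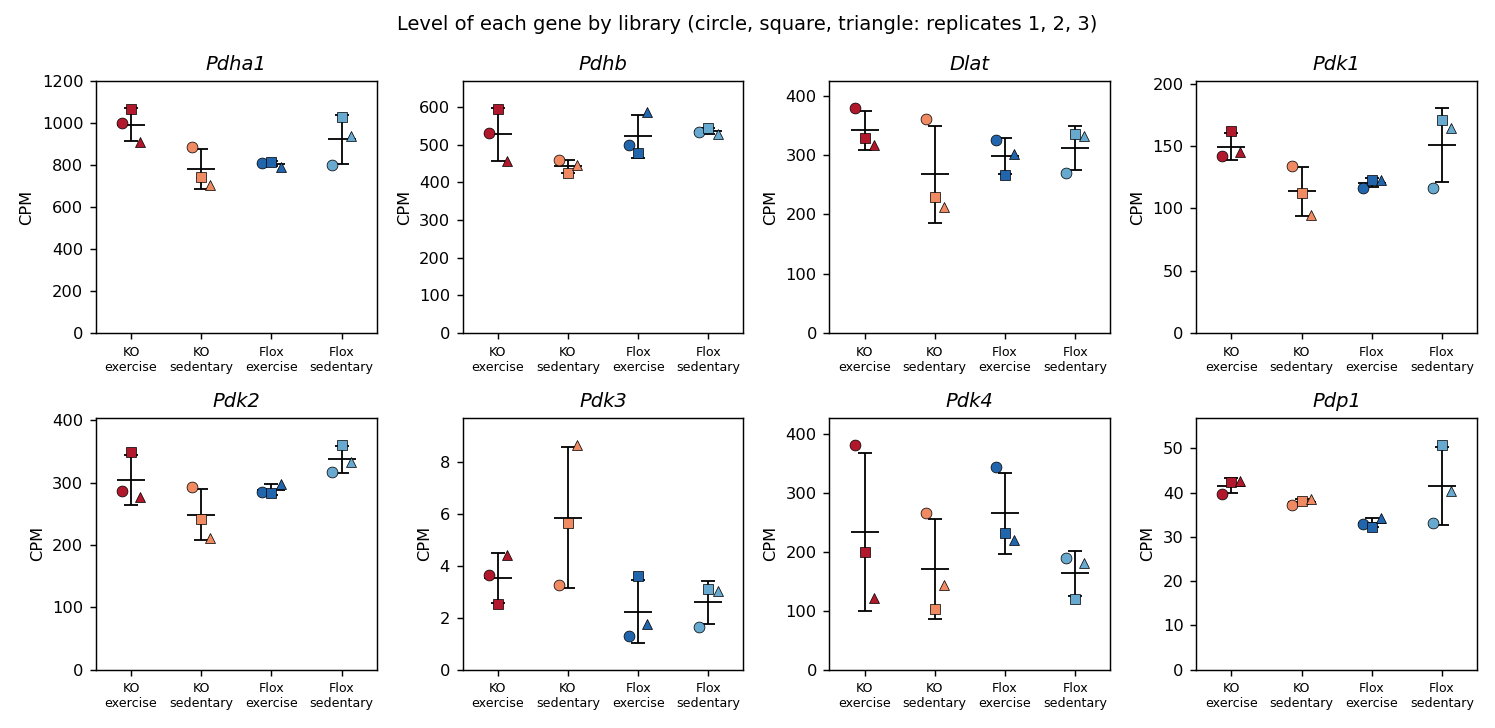
Level of each of the 8 genes in CPM (y axis from 0) in the 4 groups, with circles, squares and triangles for replicates 1, 2 and 3, and bars for the mean ± SD (n = 3). Pdk4 ranges from 121 to 382 CPM within KO exercise alone, while the 3 Flox exercise values of Pdha1 lie between 793 and 817 CPM.

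Pdha1 encodes the E1 alpha subunit, which carries the serines that the kinases phosphorylate. It lies on chromosome X at 160122209 to 160138413 on the reverse strand (GRCm38, as for all positions here). Its level was 999, 1069 and 911 CPM in KO exercise, 887, 746 and 706 in KO sedentary, 810, 817 and 793 in Flox exercise and 802, 1031 and 937 in Flox sedentary. KO exercise stood above Flox exercise and above KO sedentary without overlap, while KO sedentary and Flox sedentary overlapped. Its exons share 603 bases with Map3k15 on the other strand, which held at most 48 counts in a library.

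Pdhb encodes E1 beta, the partner of E1 alpha (chromosome 14, 8165996 to 8173025, reverse strand). It had 529.7, 596 and 456 CPM in KO exercise, 459, 424 and 445 in KO sedentary, 500.1, 479 and 586 in Flox exercise and 534, 545 and 528 in Flox sedentary. The 3 KO sedentary libraries lay below the 3 Flox sedentary ones without overlap.

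Dlat encodes E2, the acetyltransferase core to which the kinases dock (chromosome 9, 50634633 to 50659780, reverse strand). Its values were 379, 328 and 317 CPM in KO exercise, 362, 229 and 212 in KO sedentary, 326, 266 and 302 in Flox exercise and 269.9, 335 and 332 in Flox sedentary. KO sedentary libraries 2 and 3 were the lowest of the 12, and library 1 of that group was the second highest of all.

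Pdk1 is the one member on the forward strand (chromosome 2, 71873224 to 71903858). It had 142, 162 and 145 CPM in KO exercise, 134, 113 and 94.4 in KO sedentary, 116, 123 and 123 in Flox exercise and 117, 171 and 164 in Flox sedentary. KO exercise lay above KO sedentary and above Flox exercise without overlap.

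Pdk2 lies on chromosome 11 at 95026258 to 95041354 on the reverse strand, and overlaps an antisense gene, Gm11513, that shares none of its exon bases. It had 286, 349 and 276 CPM in KO exercise, 292, 242 and 211 in KO sedentary, 285, 283 and 298 in Flox exercise and 317, 361 and 333 in Flox sedentary. Flox sedentary libraries were above both KO sedentary and Flox exercise without overlap.

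Pdk3, the scarcest kinase here, lies on chromosome X at 93764607 to 93832201 on the reverse strand. It had 3.66, 2.53 and 4.43 CPM in KO exercise, 3.28, 5.64 and 8.67 in KO sedentary, 1.31, 3.63 and 1.77 in Flox exercise and 1.65, 3.10 and 3.03 in Flox sedentary. The 2 highest values were those of KO sedentary 2 and 3, the libraries with the most atrial marker RNA.

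Pdk4 lies on chromosome 6 at 5483351 to 5496309 on the reverse strand. It had 382, 199 and 121 CPM in KO exercise, 266, 103 and 144 in KO sedentary, 344, 232 and 220.4 in Flox exercise and 190.0, 119.7 and 182 in Flox sedentary. The 3 Flox exercise values lay above the 3 Flox sedentary values, and the 2 KO groups overlapped.

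Pdp1 encodes the calcium-stimulated phosphatase that reactivates the complex (chromosome 4, 11958184 to 11966452, reverse strand). It had 39.7, 42.5 and 42.7 CPM in KO exercise, 37.3, 38.1 and 38.6 in KO sedentary, 33.0, 32.2 and 34.2 in Flox exercise and 33.2, 50.8 and 40.4 in Flox sedentary. All 3 KO exercise values were above those of Flox exercise and of KO sedentary.

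The promoters of 3 kinases are shown because these genes differ most in spread and level: Pdk4 with the widest range of the abundant members, Pdk2 as the main kinase by level, and Pdk3 with the highest values in the atria-rich libraries. Each run is the sequence upstream of both the RefSeq and the GENCODE start, on the gene's strand, from RefSeq on GRCm38.p6. They lie at chr6:5496310-5496528, chr11:95041372-95041621 and chrX:93832202-93832400, in that order, and all are on the reverse strand. Capitals mark matches on either strand to the motifs searched. These were the CCAAT box, the GC box GGGCGG, the E-box CACGTG, the forkhead motif GTAAACA, the nuclear receptor half-site AGGTCA, and the estrogen-related receptor half-site AAGGTCA, which holds the other half-site within it.
Pdk4: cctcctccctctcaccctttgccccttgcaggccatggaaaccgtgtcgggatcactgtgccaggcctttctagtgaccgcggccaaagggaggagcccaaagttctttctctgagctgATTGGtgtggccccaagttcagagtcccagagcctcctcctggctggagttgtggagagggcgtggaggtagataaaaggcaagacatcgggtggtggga
Pdk2: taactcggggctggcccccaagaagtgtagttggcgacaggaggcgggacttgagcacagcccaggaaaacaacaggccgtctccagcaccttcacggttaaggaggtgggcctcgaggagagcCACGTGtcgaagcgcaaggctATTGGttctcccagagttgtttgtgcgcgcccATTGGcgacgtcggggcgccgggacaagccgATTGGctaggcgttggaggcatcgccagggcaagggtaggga
Pdk3: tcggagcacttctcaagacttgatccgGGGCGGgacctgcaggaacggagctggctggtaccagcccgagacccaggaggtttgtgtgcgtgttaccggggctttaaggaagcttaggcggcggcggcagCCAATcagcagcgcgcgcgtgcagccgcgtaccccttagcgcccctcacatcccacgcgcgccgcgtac
Pdk2 held 3 CCAAT matches and 1 E-box, Pdk4 held 1 CCAAT match, and Pdk3 held 1 CCAAT match and 1 GC box. The forkhead motif and both half-sites were in none of the 3 windows. Of 32851 RefSeq promoter windows of 250 bases, 33.8% held a CCAAT box, 32.7% the GC box, 6.02% the E-box, 14% the nuclear receptor half-site, 4.08% the estrogen-related receptor half-site and 3.17% the forkhead motif. These matches describe the letters of short windows and show no binding. The RefSeq promoter table had entries for Pdha1, Pdhb, Dlat, Pdk1, Pdk2, Pdk3 and Pdk4, which is 7 of the 8 members.

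The comparison of KO with Flox under the exercise label asked how the 8 members differed between the genotype labels. None of the 8 members passed (edgeR quasi-likelihood test, Benjamini-Hochberg adjusted over all genes, threshold 0.05), against 0.00657% of all genes tested. At an unadjusted p under 0.05 there were 2 members and 7.94% of all genes, and DESeq2 called 0 members and 10 genes in all. Of the members, 7 were higher in KO, with a median log2 difference of 0.25 against -0.01 over all genes. Pdp1 averaged 41.6 ± 1.68 CPM in KO exercise and 33.2 ± 1.02 in Flox exercise (SD, n = 3 each), a log2 difference of 0.33 ± 0.13 (SE; edgeR adjusted p = 0.601). Pdha1 averaged 993 ± 79.3 CPM in KO exercise and 807 ± 12.2 in Flox exercise, a difference of 0.30 ± 0.13 (edgeR adjusted p = 0.620). Pdk1 averaged 149.6 ± 10.9 CPM in KO exercise and 121 ± 3.56 in Flox exercise, a difference of 0.31 ± 0.15 (edgeR adjusted p = 0.656). In these 3 members all KO values lay above all Flox values, as in 7.61% of all genes, while no member had the opposite order, found in 7.23% of all genes. For the abundant Pdk2 and Pdhb the 95% intervals of the log2 difference were -0.22 to 0.37 and -0.26 to 0.29. That of Pdk4 was wider, at -1.17 to 0.81. The summed level of 6 endothelial markers was 608 to 748 CPM in KO exercise and 775 to 921 in Flox exercise, and its part in these values was not tested. In bulk hearts, fewer cells of a type and less RNA per cell cannot be told apart.

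Under the sedentary label, Pdk2 and Pdk1 had the largest negative differences between KO and Flox and Pdk3 the one large positive difference, and none of the 8 members passed, against 0.125% of all genes (edgeR). At an unadjusted p under 0.05 there were 4 members and 13.5% of all genes, and DESeq2 called 394 genes in all, 1 of them a member, Pdk2. Pdk2 averaged 248 ± 40.9 CPM in KO sedentary and 337 ± 21.8 in Flox sedentary, a log2 difference of -0.44 ± 0.14 (edgeR adjusted p = 0.194). It passed with DESeq2 (-0.45 ± 0.13, adjusted p = 0.0357), and without KO sedentary 1 in edgeR (-0.59 ± 0.13, adjusted p = 0.0332), a fit in which 479 genes passed in place of 19. Over all its alternatives the adjusted p ran from 0.0332 to 1. Without KO sedentary 1, that group kept only libraries 2 and 3, at atrial sums of 11100 and 21490 CPM against 1546 in library 1. Pdk1 averaged 114 ± 19.9 CPM in KO sedentary and 151 ± 29.8 in Flox sedentary (-0.41 ± 0.15, edgeR adjusted p = 0.273). Pdhb averaged 443 ± 17.3 CPM in KO sedentary and 535 ± 8.58 in Flox sedentary (-0.27 ± 0.13, edgeR adjusted p = 0.369). Pdk3 averaged 5.86 ± 2.70 CPM in KO sedentary and 2.59 ± 0.815 in Flox sedentary (1.17 ± 0.42, edgeR adjusted p = 0.254). In all, 6 of 8 members were lower in KO, with a median of -0.23 against 0.00 over all genes, with all KO values below all Flox values for Pdk2 and Pdhb, as in 7.93% of all genes, and all above for Pdk3, as in 10.4% of all genes.

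Atrial markers moved with these values. With their mean as a covariate, the log2 difference of Pdk3 between KO and Flox under the sedentary label was 0.24 ± 0.38 in place of 1.17 ± 0.42, that of Pdk2 was -0.27 ± 0.15 in place of -0.44 ± 0.14, and that of Pdhb was -0.14 ± 0.15 in place of -0.27 ± 0.13 (edgeR adjusted p = 1 for each). Across the 12 libraries, log2 Pdk3 and the atrial marker mean had a Pearson r of 0.867 and a Spearman rho of 0.832, Pdhb had -0.768 and -0.671, and Pdk2 had -0.749 and -0.685. These are descriptions of libraries that also share their groups. Pdk4, at -0.23 and -0.203, lay closer to 0. The adipocyte marker mean and the fibroblast markers were higher and cardiomyocyte markers lower in KO sedentary than in Flox sedentary libraries, as given above, and their part in the members' values was not tested.

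**Figure D2:**
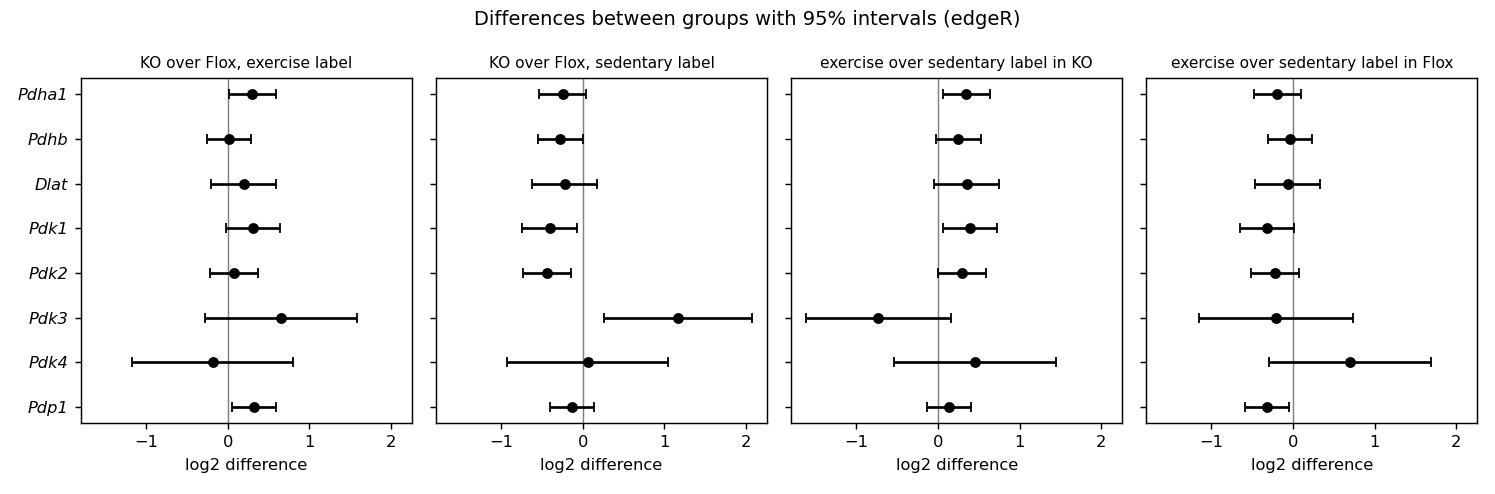
Log2 differences (x axis) of the 8 genes in 4 comparisons, with points for the estimate and bars for the 95% interval, both from edgeR. The intervals of Pdk3 and Pdk4 are the widest, and the largest estimate is that of Pdk3, at 1.17 between KO and Flox sedentary hearts.

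Within KO hearts, the catalytic subunits and Pdk1 and Pdk2 were higher under the exercise label than under the sedentary label, and none of the 8 members passed, against 0.0197% of all genes (edgeR). At an unadjusted p under 0.05 there were 2 members and 10.6% of all genes, and DESeq2 called 0 members and 114 genes in all. Pdha1 differed by 0.35 ± 0.13 on the log2 scale (edgeR adjusted p = 0.408), Pdk1 by 0.40 ± 0.15 (edgeR adjusted p = 0.409) and Pdk2 by 0.29 ± 0.14 (edgeR adjusted p = 0.472). Dlat averaged 342 ± 33.1 CPM in KO exercise and 268 ± 81.8 in KO sedentary, a difference of 0.35 ± 0.18 (edgeR adjusted p = 0.521). Without KO sedentary 1, whose Dlat level was 362 CPM, it was 0.65 ± 0.14 and passed (edgeR adjusted p = 0.0321), in a fit where 566 genes passed in place of 3. Over all its alternatives the adjusted p ran from 0.0321 to 0.894. The fit without KO sedentary 1 kept only KO sedentary 2 and 3, at atrial sums of 11100 and 21490 CPM against 1546 in library 1. In total 7 of 8 members were higher, with a median of 0.32 against 0.00 over all genes, and Pdk3 was the exception at -0.73 ± 0.41. Pdha1, Pdk1 and Pdp1 had all exercise values above all sedentary values, as did 5.82% of all genes, and no member had the opposite order, found in 7.31% of all genes. KO sedentary is also the group of the comparison above, so the 2 sets of differences share 3 libraries. The marker levels of KO sedentary therefore bear on this comparison too: the adipocyte mean was 1.58 to 1.72 log2 CPM in KO exercise and 3.795 to 4.41 in KO sedentary, and the atrial sum 200 to 3340 CPM in KO exercise and 1550 to 21500 in KO sedentary. The summed adipocyte level overlapped, at 373 to 598 CPM in KO exercise and 571 to 811 in KO sedentary. Fabp4 had 325 to 531 CPM in KO exercise and 407 to 512 in KO sedentary. The sum of 5 red blood cell markers was 412 to 525 CPM in KO exercise and 617 to 660 in KO sedentary. With the atrial covariate the Pdk3 difference was -0.10 ± 0.33 and that of Pdk2 0.17 ± 0.14. That of Pdha1 was 0.29 ± 0.15 and that of Dlat 0.265 ± 0.196. The part of the other markers was not tested.

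Within Flox hearts, Pdk4 was the single member higher under the exercise label. It averaged 266 ± 68.5 CPM in Flox exercise and 164 ± 38.5 in Flox sedentary, a log2 difference of 0.70 ± 0.45 (edgeR adjusted p = 0.764, 95% interval -0.30 to 1.69). The other 7 members were lower, Pdp1 at -0.32 ± 0.13 (edgeR adjusted p = 0.594) and Pdk1 at -0.32 ± 0.15 (edgeR adjusted p = 0.673) by the most. None of the 8 passed, against 0% of all genes (edgeR). At an unadjusted p under 0.05 there were 1 member and 7.41% of all genes, and DESeq2 called 0 members and 49 genes in all. Pdk4 had all exercise values above all sedentary values, as did 7.5% of all genes, and Pdk2 had all below, as did 6.57% of all genes. Cardiomyocyte markers summed to 71400 to 75600 CPM in Flox exercise and 78600 to 83200 in Flox sedentary, and fibroblast markers to 1160 to 2220 CPM in Flox exercise and 958 to 1020 in Flox sedentary, and their part in these values was not tested.

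The interaction, the exercise difference in KO minus that in Flox, was positive for 6 of 8 members with a median of 0.44 against -0.02 over all genes. Pdk1 had 0.72 ± 0.22 (edgeR adjusted p = 0.406), Pdha1 0.54 ± 0.19 (edgeR adjusted p = 0.443), Pdk2 0.51 ± 0.19 (edgeR adjusted p = 0.461) and Pdp1 0.46 ± 0.18 (edgeR adjusted p = 0.470). Dlat stood at 0.42 ± 0.26, Pdhb at 0.29 ± 0.18, Pdk4 at -0.24 ± 0.63 and Pdk3 at -0.52 ± 0.60. No member passed, against 0% of all genes (edgeR). At an unadjusted p under 0.05 there were 4 members and 9.88% of all genes, and DESeq2 called 0 members and 48 genes in all. Averaged over both treatment labels, Pdk3 was 1.88-fold higher in KO than in Flox (0.91 ± 0.30, edgeR adjusted p = 0.291) and Pdk2 stood at -0.18 ± 0.10 (edgeR adjusted p = 0.482). No member passed there, against 0.0525% of all genes (edgeR). At an unadjusted p under 0.05 there were 1 member and 11.6% of all genes, and DESeq2 called 0 members and 172 genes in all. With the atrial covariate the averaged Pdk3 difference was 0.38 ± 0.25. Averaged over both genotypes, Pdk4 was 1.49-fold higher under the exercise label (0.58 ± 0.31, edgeR adjusted p = 0.656). Again no member passed, against 0.0263% of all genes (edgeR). At an unadjusted p under 0.05 there were 0 members and 8.45% of all genes, and DESeq2 called 0 members and 49 genes in all.

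Kinase RNA was mostly Pdk2 and Pdk4. Of the kinase level per kb summed over the 4 genes, Pdk2 made up 58.9% ± 9.62 in KO exercise, 60.7% ± 5.58 in KO sedentary, 56.3% ± 4.81 in Flox exercise and 66.0% ± 3.496 in Flox sedentary. Pdk4 made up 27.7% ± 11.96, 25.7% ± 7.23, 33.0% ± 5.94 and 20.7% ± 5.14 in the same order, and Pdk1 12.6% ± 2.32, 12.02% ± 1.27, 10.2% ± 1.01 and 12.7% ± 2.18 (SD, n = 3 each). Pdk3 took at most 2.60%, in KO sedentary 3. Within Flox hearts the Pdk4 share was 39.8, 30.5 and 28.7% under the exercise label and 24.9, 15.0 and 22.3% under the sedentary label, without overlap.

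**Figure D3:**
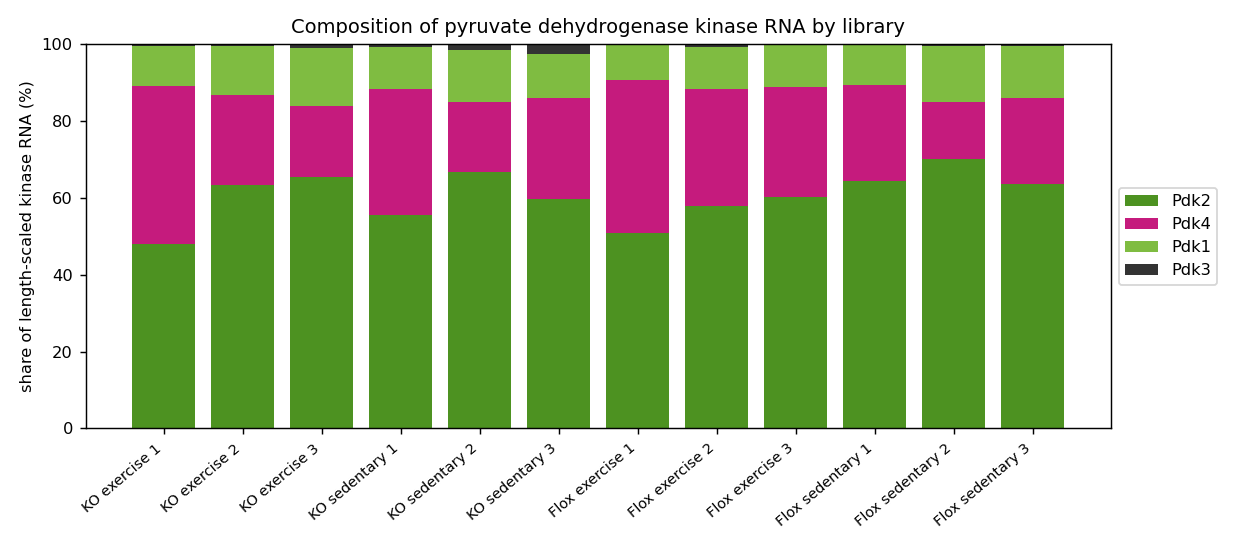
Share of each kinase gene (percent, y axis) in the summed kinase level per kb, 1 bar per library, in the order KO exercise, KO sedentary, Flox exercise, Flox sedentary. Pdk2 is the largest part of every bar, from 47.9% in KO exercise 1 to 70.0% in Flox sedentary 2, and the Pdk4 part is 41.2% in KO exercise 1 and 15.0% in Flox sedentary 2.

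A ratio of genes within a library does not depend on the scaling between libraries, and 2 such ratios were tested after the values had been seen. Those of Pdk2, Pdk1, Pdp1 and Pdhb over Pdha1 were computed and not tested. Pdk4 over Pdk2, in CPM, was 1.33, 0.571 and 0.438 in KO exercise, 0.911, 0.425 and 0.679 in KO sedentary, 1.21, 0.819 and 0.739 in Flox exercise and 0.599, 0.332 and 0.546 in Flox sedentary. In Flox hearts the exercise values lay above the sedentary values, a log2 difference of 0.92 (2-sided exact permutation test, p = 0.1, the smallest that 3 against 3 allows, and 0.4 adjusted over 12 tests). In KO hearts the groups overlapped and the difference was 0.11 (exact p = 0.9, 1 adjusted). It was -0.36 without KO exercise 1 and 0.45 at most over the libraries left out. Averaged over both genotypes the ratio differed by 0.52 (exact permutation within genotype, p = 0.18, 0.48 adjusted). The 4 kinases over Pdha1, per kb, had a ratio of 0.666 ± 0.0866 in KO exercise and 0.809 ± 0.0589 in Flox exercise (exact permutation p = 0.1, 0.4 adjusted), and 0.668 ± 0.0731 in KO sedentary and 0.708 ± 0.0726 in Flox sedentary (exact permutation p = 0.6, 0.8 adjusted; SD, n = 3 each). Averaged over both labels this ratio was lower in KO by a log2 difference of -0.18 (exact permutation within label, p = 0.08, 0.4 adjusted).

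**Figure D4:**
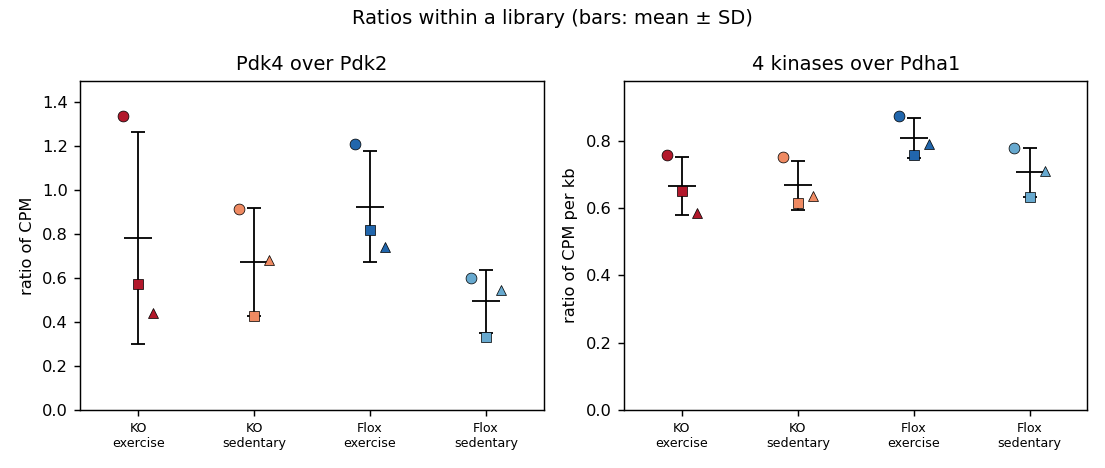
Pdk4 over Pdk2 as a ratio of CPM (left) and the 4 kinases over Pdha1 as a ratio of CPM per kb (right) in the 4 groups, with circles, squares and triangles for replicates 1, 2 and 3 and bars for the mean ± SD (n = 3). In Flox hearts the exercise values of the left ratio, 0.739 to 1.21, lie above the sedentary values, 0.332 to 0.599.

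Genes that complete the complex and act around it were described from 5 lists, in which no gene passed in any of the 7 comparisons (edgeR). At an unadjusted p under 0.05, edgeR had 4 of 13 pyruvate genes and 6 of 19 PPAR targets between KO and Flox sedentary hearts, against 13.5% of all genes, and 6 of 13 and 5 of 19 for exercise over sedentary in KO, against 10.6% of all genes. Of the 15 Pdk4 regulators it had 4 for KO over Flox under the exercise label, against 7.94% of all genes, and 3 for exercise over sedentary in Flox, against 7.41%. The other counts were 0 to 3 genes a list in these 4 comparisons. Under the sedentary label, DESeq2 called Gpt, Ldhb and Acadvl for KO over Flox, among 394 genes in all. It also called Ldhb for exercise over sedentary in KO, among 114 genes, and Acot1 for KO over Flox averaged over both labels, among 172. Of the rest of the complex, 4 of 5 genes had enough counts, and the testis-type Pdha2 did not. Dld (the E3 subunit), Pdhx (the E3-binding protein), Pdp2 (the second phosphatase) and Pdpr (a regulatory subunit of the phosphatase) were all higher in KO under the exercise label (median 0.30) and all lower in KO under the sedentary label (median -0.46). Under the exercise label Pdp2 stood at 0.40 ± 0.24 and Pdpr at 0.78 ± 0.49, and under the sedentary label Pdp2 at -0.64 ± 0.24 and Dld at -0.29 ± 0.14 (edgeR adjusted p from 0.283 to 0.716). Pdpr had 60.7, 35.5 and 54.7 CPM in KO exercise, 42.6, 26.3 and 13.1 in KO sedentary, 29.4, 33.3 and 25.3 in Flox exercise and 19.4, 62.3 and 58.5 in Flox sedentary, a wide spread within both sedentary groups. Within KO hearts Dld was at 0.37 ± 0.14 and Pdhx at 0.23 ± 0.13 for exercise over sedentary, and within Flox hearts Pdp2 was at -0.69 ± 0.24 and Pdpr at -0.67 ± 0.49.

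Lipoylation genes make the lipoate that E2 needs. All 7 were tested, with 6 lower in KO under the sedentary label (median -0.24) and 4 higher under the exercise label (median 0.03). Lias, the lipoyl synthase, stood at 0.24 ± 0.09 under the exercise label and -0.19 ± 0.09 under the sedentary label, Lipt1, a lipoyltransferase, at -0.16 ± 0.17 under the exercise label, and Nfu1, an iron-sulfur cluster carrier, at -0.28 ± 0.12 under the sedentary label. Within KO hearts Lias was at 0.31 ± 0.09 and Nfu1 at 0.32 ± 0.12 for exercise over sedentary. Within Flox hearts Lipt2 was at -0.38 ± 0.19 and Lias at -0.12 ± 0.09.

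Genes of other pyruvate fates were lower in KO in 12 of 13 under the sedentary label, with a median of -0.28. Gpt, which exchanges pyruvate with alanine, stood at -0.66 ± 0.19 (edgeR adjusted p = 0.172) and Ldhb, the heart-type lactate dehydrogenase subunit, at -0.49 ± 0.14 (edgeR adjusted p = 0.174). Within KO hearts all 13 were higher under the exercise label (median 0.30), with Ldhb at 0.44 ± 0.14 and Gpt at 0.52 ± 0.19. For KO over Flox under the exercise label 7 were higher and 6 lower (median 0.00), with Pcx, pyruvate carboxylase, at 0.24 ± 0.13 and Ldha at -0.15 ± 0.11. In Flox hearts the median was -0.05, with Ldha at 0.20 ± 0.11 and Pcx at -0.17 ± 0.13.

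Of 15 known regulators of Pdk4, 12 were lower under the exercise label in Flox hearts (median -0.10), where Pdk4 itself was at 0.70 ± 0.45. Klf15, a glucocorticoid-responsive factor, stood at -0.66 ± 0.17 (edgeR adjusted p = 0.456) and Foxo3, a FOXO factor, at -0.79 ± 0.21 (edgeR adjusted p = 0.487). For KO over Flox, Esrrb, an estrogen-related receptor, was at 0.56 ± 0.17 and Klf15 at 0.49 ± 0.17 under the exercise label, and Foxo3 at -0.56 ± 0.21 and Klf15 at -0.38 ± 0.17 under the sedentary label. Within KO hearts Ppargc1a, a co-activator of mitochondrial genes, was at 0.33 ± 0.14 and Esrrb at 0.32 ± 0.17.

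Of the 19 genes listed as PPAR targets, 17 were lower in KO under the sedentary label (median -0.41). Acadvl stood at -0.46 ± 0.15 (edgeR adjusted p = 0.216) and Fabp3 at -0.49 ± 0.16 (edgeR adjusted p = 0.232). Within KO hearts 16 of 19 were higher under the exercise label (median 0.36), Acadm by 0.54 ± 0.17 and Hadhb by 0.49 ± 0.16. For KO over Flox under the exercise label the median was -0.04, with Acot1, an acyl-CoA thioesterase, at -1.05 ± 0.34 and Txnip, which restrains glucose uptake, at 0.90 ± 0.32. In Flox hearts the median was -0.01, with Txnip at -0.81 ± 0.32 and Cpt1a, which brings fatty acids into mitochondria, at -0.38 ± 0.15. The atrial, cardiomyocyte and fibroblast marker levels and the adipocyte mean given above moved with the sedentary-label comparison of genotypes for all 5 lists, and the atrial level and adipocyte mean with the comparison within KO hearts as well. Their part in the list medians was not tested.

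**Figure D5:**
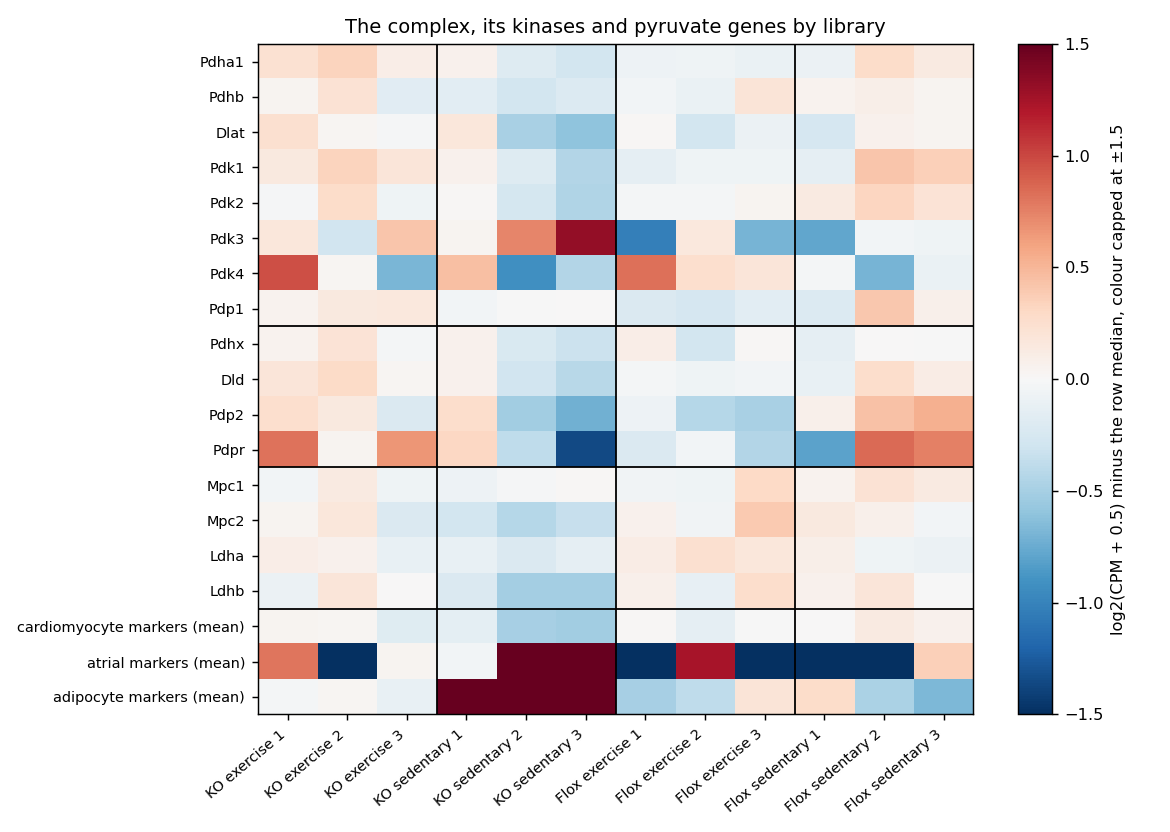
Log2(CPM + 0.5) of the 8 genes, the rest of the complex and 4 pyruvate genes in the 12 libraries (columns), each row minus its median, with the mean of 3 marker lists at the foot and colours capped at ±1.5. KO sedentary 2 and 3 hold the lowest Dlat values of the 12 libraries and the 2 highest Pdk3 values, with the highest atrial means at 8.18 and 8.80 log2 CPM.

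The 12 libraries also show which members share a pattern. Log2 levels of Pdha1 and Pdk1 had a Pearson r of 0.937 (Spearman 0.923), Pdk1 and Pdk2 0.835 (0.706), and Pdha1 and Dlat 0.805 (0.797). Pdk4 had values near 0 with Pdk1 (-0.0192), Pdk2 (0.155) and Pdha1 (0.159), 0.335 with Pdhb, 0.541 with Dlat, -0.518 with Pdk3 and -0.496 with Pdp1. Pdk3 was negative with all 3 catalytic subunits and all 3 other kinases, at -0.235 to -0.674, and had 0.341 with Pdp1. Among the other 10436 genes of at least 5 CPM on average, the 3 most like Pdha1 were Dsp, a desmosome protein (r = 0.965, Spearman 0.986), Ivd, an enzyme of leucine breakdown (0.964, 0.951), and Ndufs1, a subunit of respiratory complex I (0.962, 0.902). The 3 most like Pdk2 were Ppm1a, a protein phosphatase (0.957, 0.951), Tnfaip8 (0.955, 0.888) and Otud4, a deubiquitinase (0.934, 0.895). The 3 most like Pdk4 were Prkcsh, the glucosidase II beta subunit (0.926, 0.895), Armc6 (0.879, 0.909) and Agpat3, an acyltransferase (0.876, 0.846). Without the 2 libraries farthest from each member's median, r was 0.930 to 0.963 for the genes like Pdha1, 0.903 to 0.956 for Pdk2 and 0.812 to 0.903 for Pdk4. These are the highest of many values over libraries that share depth and group, and are given as descriptions with no test.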

How the data were processed

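Total RNA of 12 mouse heart samples, depleted of ribosomal RNA per the labels' protocols, was sequenced. The values deposited are estimated counts, 1 row per gene; of these, 29.89 to 34.91% of the values above 0 in a library were not whole. Per the submitters' processing notes, FastQC and Salmon were used, and mm9 and mm10 are named with no role; their versions are not given. Estimated counts were rounded to whole numbers. The 1696 entries of vectors, phage and adaptors, 3.87e-05 to 0.186% of a library's counts, were left out. Reads of the 13 mitochondrially encoded genes made up 21 to 27.2% of counts.

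Genes were filtered with filterByExpr, scaled with TMM and fitted as 4 groups with edgeR 4.0.16 quasi-likelihood (limma 3.58.1, R 4.3.3), with Benjamini-Hochberg adjustment over 15226 genes and a threshold of 0.05. DESeq2 1.42.0 was the other tool. The edgeR code was tested on simulated data. SEs were taken from the fold change and F. Log2 levels used CPM + 0.5. Ratios were tested by exact permutation.

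All 8 members are named. From each of 5 lists, the 2 genes with the smallest unadjusted p in each of 4 comparisons are named. The members, lists and tests were chosen with earlier results of these data known. The other settings tried were no low-count filter, DESeq2 size factors, library sizes without mitochondrial genes, DESeq2, a replicate block, an atrial covariate, the compared groups alone, and each library left out in turn. Replicate libraries differed by more than sampling noise (chi-square per degree of freedom from 17.1 to 84.7).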

Additional observations from a re-analysis of the deposited data

Results flagged for a closer look

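Lias, the lipoyl synthase, was flagged because its KO and Flox libraries did not overlap in either treatment label and lay in opposite orders. It had 43.5, 42.2 and 44.6 CPM in KO exercise against 35.5, 36.9 and 38.3 in Flox exercise, and 37.29, 33.0 and 35.0 in KO sedentary against 37.31, 44.2 and 38.5 in Flox sedentary. The sedentary groups were thus nearly tied at library 1, with 37.29 in KO and 37.31 in Flox. Of all genes, 7.61% lay higher in KO without overlap under the exercise label and 7.93% lower under the sedentary label. The share with both was not counted. The interaction was 0.424 on the log2 scale and did not pass (edgeR adjusted p = 0.406).

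Foxo3, a FOXO factor known to act on Pdk4, was flagged because its exercise and sedentary libraries did not overlap in either genotype and lay in opposite orders. It had 86.5, 85.2 and 70.5 CPM in KO exercise against 66.5, 59.4 and 65.5 in KO sedentary, and 57.4, 52.7 and 53.7 in Flox exercise against 65.9, 136.9 and 79.95 in Flox sedentary. Of all genes, 5.82% lay higher under the exercise label without overlap in KO and 6.57% lower in Flox, and the share with both was not counted. The interaction of Foxo3 was 1.13 on the log2 scale and did not pass (edgeR adjusted p = 0.379).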

How the results depend on the processing

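The 43 log2 differences of the members (8 in each of 4 comparisons and in the interaction, and 3 averages) were recomputed under up to 19 alternatives each, which gave 806 values, of which 786 kept their direction and their side of the threshold, 3 newly passed and 17 had the other sign. The number of members that passed was 1 with DESeq2 and 0 to 1 with a library left out in the sedentary-label comparison of KO with Flox, and 0 to 1 with a library left out for exercise over sedentary in KO. In that same sedentary-label comparison the sign of Pdk4 turned, to -0.0435 with the replicate block, and that of Pdk3 in the interaction to 0.29 with the atrial covariate. Over the libraries left out, the values that turned were, for KO over Flox under the exercise label, Pdhb (-0.083 to 0.112), Pdk2 (-0.0384 to 0.14) and Pdk4 (-0.73 to 0.13). In the sedentary-label comparison of KO with Flox they were Pdk4 (-0.43 to 0.32) and Pdp1 (-0.27 to 0.0429). For exercise over sedentary they were Pdk4 in KO (-0.0926 to 0.94), and Pdhb (-0.13 to 0.0126) and Pdk3 (-0.76 to 0.0549) in Flox. In the interaction they were Pdk3 (-0.78 to 0.046) and Pdk4 (-0.79 to 0.25). The cause was not tested.

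Counts of all genes that passed moved more. For KO over Flox under the exercise label, 1 gene passed, against 4 with no low-count filter, 10 with DESeq2 and 1 to 2 with a library left out. Under the sedentary label, 19 passed, against 120 with no filter, 394 with DESeq2, 37 with the replicate block, 3 with the atrial covariate, 39 with the compared groups alone and 2 to 479 with a library left out. For exercise over sedentary in KO, 3 passed, against 30 with no filter, 1 with DESeq2 size factors, 114 with DESeq2, 0 with the atrial covariate, 5 with the groups alone and 0 to 566 with a library left out. In Flox, 0 passed, against 2 with no filter, 49 with DESeq2, 2 with the groups alone and 0 to 2 with a library left out. In the interaction, 0 passed, against 1 with no filter, 48 with DESeq2 and 0 to 2 with a library left out. For KO over Flox over both labels, 8 passed, against 49 with no filter, 172 with DESeq2, 19 with the replicate block, 1 with the atrial covariate and 4 to 34 with a library left out. For exercise over sedentary over both genotypes, 4 passed, against 10 with no filter, 2 with DESeq2 size factors, 49 with DESeq2, 2 with the replicate block, 1 with the atrial covariate and 0 to 12 with a library left out. The groups alone give no other fit for the last 3 comparisons.

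The labels do not say that a replicate number marks a shared litter, batch or day. Over 18 pairs of libraries with the same number, deviations from the group means had correlations of -0.454 to 0.478, with 7 over 0.1, and 4 of 12 libraries were most like one of their own number, so the numbers were not taken to pair the libraries. With the replicate block 0 members passed in any comparison. Depth limits Pdk3 most, at 23 to 190 counts per library.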

Other observations

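The library numbered 1 had the highest Pdk4 level of its group in all 4 groups, a pattern noticed after the values were seen. With the replicate block the SE of the Pdk4 exercise difference was 0.26 in place of 0.45 in Flox, at 0.67 (edgeR adjusted p = 0.561), and 0.26 in place of 0.44 in KO, at 0.45 (edgeR adjusted p = 0.542).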
